A study of Mus musculus with 2 samples.

Results

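The cells described here are the 155 cells of the E-cadherin+cKIT+ library that carried transcripts of the B cell antigen receptor chain Cd79a, Cd79b or both, out of 6632 cells in that library and 10377 in the series. A cell was taken when it held at least 1000 unique molecular identifiers (UMIs, each of which counts 1 captured RNA molecule), at least 3 UMIs of Cd79a and Cd79b together, less than 0.5% of its UMIs in the basophil protease gene Mcpt8, and fewer than 50 UMIs of the plasma cell gene Jchain. They made up 2.34% of the library (95% interval 1.99 to 2.73). The same rule took 229 of the 3745 cells of the E-cadherin+cKIT- library, or 6.11% (5.37 to 6.93). Both libraries came from bone marrow of FVB mice, sorted on surface E-cadherin and on the presence or absence of surface cKIT, the stem cell factor receptor. The paper calls these mice wild-type in its text and VaviCre; mTmG, a line in which Cre driven in blood cells by Vav switches on a fluorescent reporter, in a legend. The sorted cells came from 3 mice, whose age and sex are not in the labels, and each sort was sequenced once on the 10x Genomics droplet platform. With 1 library per sort there is no replicate, so no test was made, and the sort and the library cannot be told apart.

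The cKIT+ library held 95477153 UMIs with a median of 13074 per cell, and the cKIT- library 24033994 with a median of 4436. The 155 cells held 2997442 UMIs, from 1637 to 62701 per cell with a median of 16442. Of the 10 cell barcodes that occurred in both libraries, 0 belonged to these cells. Levels below are UMIs summed over the cells of a group and scaled to the total UMIs of that group as counts-per-million (CPM). All intervals are exact 95% intervals (Poisson for CPM, Clopper-Pearson for shares, conditional binomial for ratios of CPM) and cover counting error only, since the cells of a library are not replicates. A level of 0 is given with the level that 3 counts would have. The rule was made from measured values, so the levels of Cd79a, Cd79b, Mcpt8 and Jchain chose the cells and are not results.

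B cells arise in the bone marrow through a series of steps that are recognised by their transcripts. The transcription factors Ebf1 and Pax5 establish the lineage, interleukin-7 supports the earliest cells, and the recombinases Rag1 and Rag2 join the gene segments of the immunoglobulin heavy chain while Dntt (terminal transferase) adds bases at the joints. A heavy chain that pairs with the surrogate light chain, made of Vpreb1 or Vpreb2 with Igll1, reaches the surface together with CD79A and CD79B as the pre-B cell receptor, after which cells divide, stop making the surrogate light chain and rearrange a light chain. Immature and mature B cells then display major histocompatibility complex class II and Ms4a1 (CD20). Surface cKIT is carried in this lineage by the earliest committed cells, the pro-B cells.

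Cd79a and the surrogate light chain genes carried the description that follows, and their promoters are shown for that reason. Each sequence runs from 250 bases before to 50 bases after the start of the gene as annotated in RefSeq (GRCm38.p6), 5′ to 3′ on the strand of the gene. Capitals mark matches to CAGGTG, a form of the E-box recognised by E2A proteins, or to CCCNNGGG, the core of the motif bound by EBF1, both searched on either strand.

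Cd79a (chr7:24897247-24897546, plus strand): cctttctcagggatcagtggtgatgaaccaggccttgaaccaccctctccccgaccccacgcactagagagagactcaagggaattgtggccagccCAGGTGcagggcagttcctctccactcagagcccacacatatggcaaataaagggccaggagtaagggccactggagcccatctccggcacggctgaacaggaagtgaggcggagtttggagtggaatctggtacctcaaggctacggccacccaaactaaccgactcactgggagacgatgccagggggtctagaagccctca
Vpreb1 (chr16:16869206-16869505, minus strand): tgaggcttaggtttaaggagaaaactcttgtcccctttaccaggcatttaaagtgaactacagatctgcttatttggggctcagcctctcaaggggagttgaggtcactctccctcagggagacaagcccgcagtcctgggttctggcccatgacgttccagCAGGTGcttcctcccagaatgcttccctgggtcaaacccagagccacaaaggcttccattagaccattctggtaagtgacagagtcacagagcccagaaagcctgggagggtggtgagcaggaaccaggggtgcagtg
Vpreb2 (chr16:17980315-17980614, plus strand): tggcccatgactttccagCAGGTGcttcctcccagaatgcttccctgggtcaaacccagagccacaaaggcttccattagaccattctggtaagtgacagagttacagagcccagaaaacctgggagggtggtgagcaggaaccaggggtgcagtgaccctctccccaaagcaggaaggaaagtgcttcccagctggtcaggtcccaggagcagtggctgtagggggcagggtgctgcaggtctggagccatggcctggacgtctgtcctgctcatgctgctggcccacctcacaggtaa
Igll1 (chr16:16863936-16864235, minus strand): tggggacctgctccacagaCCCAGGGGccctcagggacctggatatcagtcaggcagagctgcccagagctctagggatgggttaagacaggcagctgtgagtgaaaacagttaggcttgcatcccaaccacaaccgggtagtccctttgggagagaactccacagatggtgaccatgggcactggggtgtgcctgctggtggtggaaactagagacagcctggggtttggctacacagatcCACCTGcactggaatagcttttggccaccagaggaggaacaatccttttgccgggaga

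CAGGTG began 154 bases before the start in Cd79a, 88 before it in Vpreb1 and 232 before it in Vpreb2, and in Igll1 it lay on the opposite strand, 8 bases before the start. The surroundings of the match were alike in Vpreb1 and Vpreb2, which are near copies of each other. Some reads of one gene may therefore fit the other equally well, and how such reads were counted was not examined. CCCNNGGG was present in Igll1, 231 bases before the start, and not in the other three windows shown. Among the promoters of Vpreb3, Ebf1, Pax5, Dntt and Rag1, which were also searched, only that of Rag1 held CAGGTG and none held CCCNNGGG. Of 32851 RefSeq promoters of this length, 20.2% held CAGGTG and 13.7% held CCCNNGGG. A match is a description of the letters and says nothing about binding in these cells.

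The name B-lineage fitted only some of the 155 cells. Cd79a, which encodes the alpha chain of the receptor and lies on chromosome 7 from 24897381 to 24902197 (GRCm38), was detected in 69 cells and had no UMI in the other 86, which met the rule through Cd79b alone (chromosome 11, 106311341 to 106314762). This division was made after the values were seen and describes the choice. The 69 Cd79a-detected cells held between 4 and 56 UMIs of the 2 receptor genes, with a median of 18, and 64 of them held 10 or more. The 86 Cd79b-only cells held between 3 and 7, with a median of 3, and 59 of them held exactly 3. The groups hardly overlapped, and most Cd79b-only cells stood at the lowest value the rule accepts.

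The other markers of the lineage followed the same division. Among Ebf1, Vpreb1, Vpreb3 and Igll1, all 4 were detected in 28 of the 69 Cd79a-detected cells, 2 in 29, 1 in 10, 3 in 1 and none in 1. In 80 of the 86 Cd79b-only cells none of the 4 was detected, and 6 cells had 1 of them. Summed over the 4 genes, the Cd79a-detected cells held 0 to 235 UMIs with a median of 27, and the Cd79b-only cells 0 to 2 with a median of 0. The Cd79b-only cells were the deeper ones, with a median of 27812 UMIs and 4922 genes against 3272 UMIs and 1588 genes. Only the Cd79a-detected cells are called B-lineage below, and the 86 are named by the rule that took them. The name does not suit 1 of the 69, which had none of the 4 markers and no UMI of Ighm or Igkc. That cell stays in the counts of the 69.

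**Figure D1:**
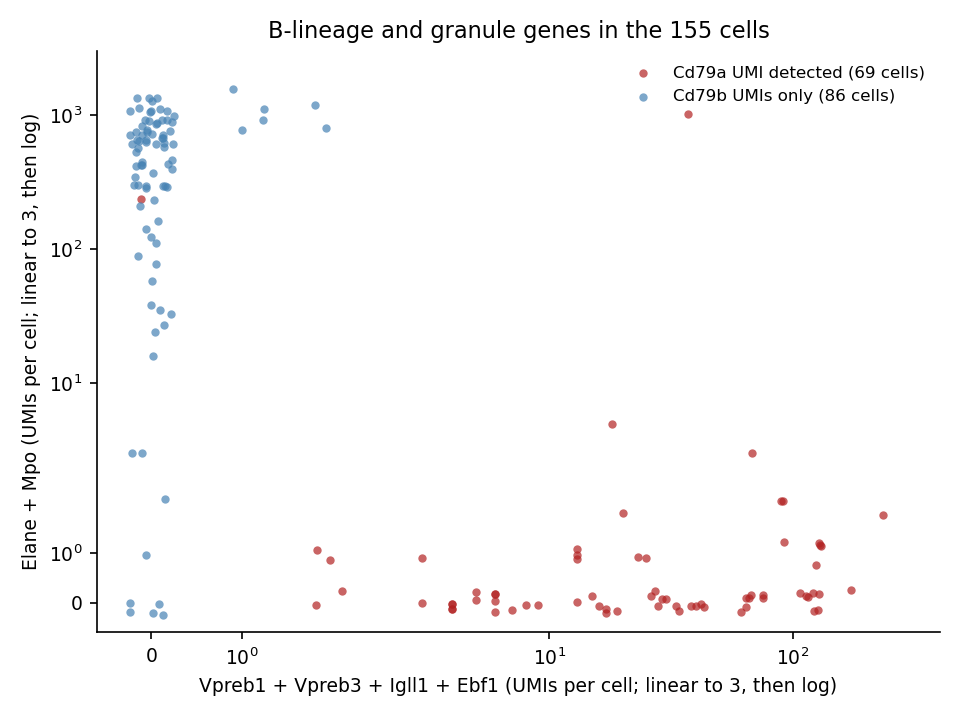
UMIs of Ebf1, Vpreb1, Vpreb3 and Igll1 together (horizontal axis) against UMIs of Elane and Mpo together (vertical axis), both linear up to 3 UMIs and logarithmic above, with 1 point per cell for the 69 Cd79a-detected and the 86 Cd79b-only cells of the cKIT+ library. Points under 3 UMIs are shifted at random by less than 1 UMI so that they can be told apart. The Cd79b-only cells lie at 0 to 2 marker UMIs and 77 of them at 10 or more Elane and Mpo UMIs, whereas 2 of the Cd79a-detected cells reach that level.

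Granule genes of neutrophil progenitors divided the cells in the opposite direction. Elane (neutrophil elastase, chromosome 10, 79886247 to 79888215) and Mpo (myeloperoxidase, chromosome 11, 87793581 to 87804413) together had 10 or more UMIs in 77 of 86 Cd79b-only cells and in 2 of 69 Cd79a-detected cells. The median was 589 UMIs in the former, with a highest cell at 1562, and 0 in the latter. Of the 2 Cd79a-detected cells past this level, one held 51210 UMIs in all, with 9 of Cd79a, 21 of Ebf1, 630 of Elane and 387 of Mpo. The other held 53000 UMIs, with 1 of Cd79a, 0 of Ebf1, 201 of Elane, 35 of Mpo and 1644 of S100a8. Another Cd79a-detected cell with over 40000 UMIs held 9 of Cd79a, 44 of Cd74 and 6 of Mcpt8. No doublet caller was run, and whether any of these 3 barcodes held more than 1 cell was not tested. Because they supply a large share of the UMIs of their class, levels of Cd79a-detected cells are also given for the 66 cells under 40000 UMIs.

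Of 3458 genes with at least 50 CPM in 1 group and 20 UMIs over both, 4.74% were at least 4-fold higher in Cd79a-detected than in Cd79b-only cells and 2.23% at least 4-fold lower, and the listed genes below were counted by the same limit. All 4 genes of the pre-B cell receptor list were higher, with a median log2 ratio of 10.68 beside 0.18 over all genes. All 7 immunoglobulin constant genes that could be counted were higher, as were 13 of 17 transcription factors, 5 of 9 receptor signalling genes, 3 of 4 recombination genes and 3 of 8 interleukin-7 signalling genes. No listed S phase or mitosis gene passed the limit in either direction among the 8 counted in each. These counts follow from the choice of the groups and support nothing beyond it. In the 86 Cd79b-only cells Ebf1 had no UMI, where 3 counts would be 1.23 CPM. In the 66 Cd79a-detected cells under 40000 UMIs Ebf1 stood at 2638 CPM, at least 2148-fold higher than those 3 counts. With the 66 cells in place of the 69, 6.03% of 3533 genes were at least 4-fold higher and 4.70% lower, and the counts of the lists named above were the same. In those 66 cells Elane stood at 22.1 CPM and Mpo at 46.6, against 10690 and 8621 in the Cd79b-only cells.

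Cd79b transcripts were found at a low level through much of the cKIT+ library. Cells of at least 1000 UMIs without Cd79a but with at least 50 Elane UMIs, 620 in number, held 38.2 CPM of Cd79b (35.3 to 41.2), or 1.05 UMIs per cell, and 65 of them reached 3 UMIs. Of those 65, 63 are among the cells described here. Cells with at least 0.5% Mcpt8 and no Cd79a, 3134 in number, held a similar level of 36.7 CPM (35.0 to 38.5), but the rule leaves them out. The 58 cells rich in haemoglobin, chosen with fewer than 3 UMIs of the receptor genes, held 6.28 CPM (1.71 to 16.1). The level was not the same in all groups, being 98.4 CPM (70.3 to 134) in 46 cells with at least 20 UMIs of the complement gene C1qa and 120 (65.8 to 202) in 10 cells with at least 3 UMIs of Siglech, a plasmacytoid dendritic cell receptor. At one and the same level, a deeper cell meets a minimum of 3 UMIs more often than a shallow one.

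**Figure D2:**
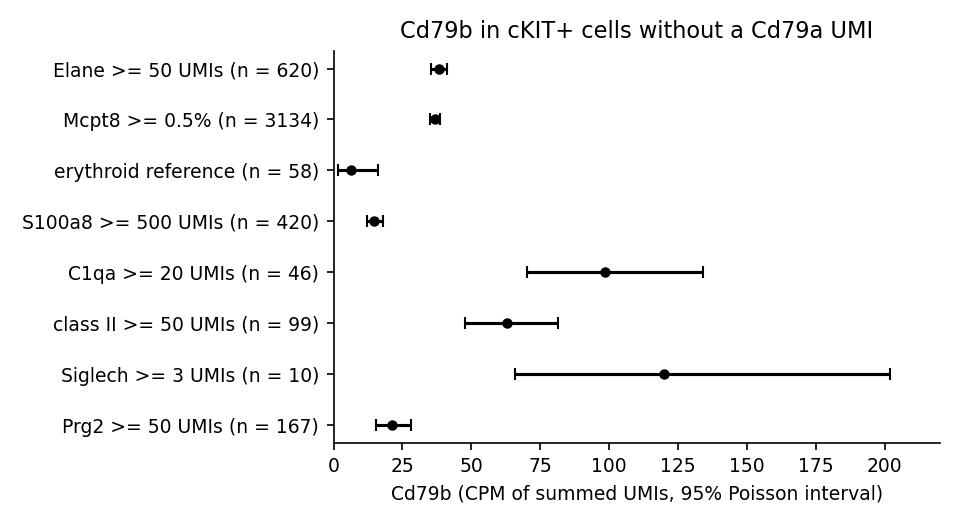
Cd79b level in CPM (horizontal axis, from 0) in groups of cKIT+ cells that had no Cd79a UMI, each defined by UMIs of another gene. Points are summed levels and bars exact Poisson 95% intervals, and the number of cells stands beside each group. The Elane-high and Mcpt8-rich groups lie at 38.2 and 36.7 CPM, the haemoglobin-rich cells (erythroid reference) at 6.28 and Siglech cells at 120.

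The cells near the limits of the rule were counted by Cd79a and Ebf1. Of the 240 cells of the library with 3 or more Cd79 UMIs, 1 fell under 1000 UMIs, 82 were at or over the Mcpt8 limit and 2 were over the Jchain limit. Among the 59 cells taken with exactly 3 UMIs, 0 had Cd79a and 0 had Ebf1. Just outside, among 199 cells with 2 UMIs, 0 had Cd79a and 1 had Ebf1. At 4 UMIs, 2 of 20 cells had Cd79a. Among the 82 cells left out for Mcpt8, 5 had Cd79a and 4 had at least 3 Ebf1 UMIs. In the cKIT- library every one of the 229 cells taken by the rule had Cd79a, with at least 6 and a median of 19 UMIs of the receptor genes.

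The Cd79b-only cells resembled the Elane-high cells that the rule did not take. Against 558 such cells, 0.321% of 2806 genes were at least 4-fold higher and 0.107% at least 4-fold lower. Elane stood at 10690 CPM in the former and 12138 in the latter, Mpo at 8621 and 8720, the granule protease Prtn3 at 6940 and 7032, cathepsin G (Ctsg) at 5396 and 5660, and the transcription factor Myb at 440 and 486. Kit had UMIs in 60 of the 86 cells and the progenitor antigen Cd34 in 54. The monocyte-associated gene Ly6c2 reached 10 UMIs in 45 cells and the alarmin S100a8 50 UMIs in 21. Ighm, the heavy chain constant gene of IgM, was at 59.8 CPM against 37.6 in the other Elane-high cells.

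A few Cd79b-only cells were different. Of the 86, 9 held under 10 Elane and Mpo UMIs. Of these 9, 4 held at least 50 UMIs of class II genes, 4 at least 10 UMIs of C1qa, C1qb and C1qc, 2 at least 3 UMIs of Siglech and 2 at least 50 UMIs of the platelet factor gene Pf4, with some cells meeting more than 1 of these. The 9 genes at least 4-fold higher than in the other Elane-high cells were Pf4, C1qa, C1qb, C1qc, H2-Aa, H2-Ab1, Cd74, Ctss and Hmox1, of which the last pair were named after their values were seen. They came from few cells, since 1 cell held 94.5% of the Pf4 UMIs and 3 cells held 81.7% of those of C1qa and 75.3% of those of Cd74.

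The cells were divided by UMI counts into 3 classes, which are ranges rather than cell types. The surrogate light chain class, with at least 3 UMIs of Vpreb1 and Igll1, held 29 of the 155 cells (18.7%; 12.9 to 25.8). The class II class, with at least 3 UMIs of H2-Aa, H2-Ab1 and H2-Eb1 among the rest, held 30 (19.4%), and 96 remained (61.9%). All 29 cells of the surrogate light chain class were Cd79a-detected, and the other Cd79a-detected cells were 20 of the class II class and 20 remaining cells. The Cd79b-only cells added 10 and 76 to these. Near the limits, 6 cells held 1 or 2 UMIs of Vpreb1 and Igll1 and 0 held 3 or 4, with 7 the lowest count inside the class and 42 the median. At the class II limit 20 cells held 1 or 2 UMIs and 3 held 3 or 4.

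Of the 69 Cd79a-detected cells alone, the surrogate light chain class made up 42.0%, the class II class 29.0% and the remaining cells 29.0%. In the cKIT- library, which had no counterpart of the Cd79b-only cells, 3 of 229 cells were in the surrogate light chain class (1.31%), 183 in the class II class (79.9%) and 43 remained (18.8%). As a share of all cells, the surrogate light chain class was 0.437% of the cKIT+ library (0.293 to 0.627) and 0.0801% of the cKIT- library (0.0165 to 0.234). The intervals cover counting error within 1 library each. The median depth of the libraries differed, at 13074 and 4436 UMIs per cell, so a limit of 3 UMIs may not have been equally easy to reach in both. Between the 69 Cd79a-detected cells and the 229 cells the medians were closer, at 3272 and 2707 UMIs. Whether depth bears on these shares was not tested. Depth differed between the classes too, with a median of 6839 UMIs per cell in the surrogate light chain class, 2350 in the Cd79a-detected class II cells under 40000 UMIs and 2713 in the Cd79a-detected remaining cells.

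The 29 cells of the surrogate light chain class had Cd79a from 1 to 44 UMIs per cell with a median of 16. Ebf1 (chromosome 11, 44617317 to 45008091) was present in every one of them, from 3 to 59 UMIs with a median of 24. Dntt (chromosome 19, 41029275 to 41059525) ranged from 0 to 77 UMIs with a median of 13 and was detected in 24 of the 29 cells. Vpreb3, an endoplasmic reticulum protein that associates with the pre-B cell receptor chains, ranged from 0 to 54 with a median of 25. Elane, the most abundant gene of the neutrophil list in the Cd79b-only cells, ranged from 0 to 3 with a median of 0, so that no cell of this class was near the Elane-high cells.

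Among the genes of the pre-B cell receptor the level of Vpreb1 (chromosome 16, 16868403 to 16870843) was 2853 CPM (2660 to 3057) in this class and 4.10 in the other cells of the library, and that of Igll1 (chromosome 16, 16860671 to 16863985) was 1416, but these cut the class. Vpreb2, which was not used, stood at 303 CPM and had no UMI in the other Cd79a-detected classes, and Vpreb3 stood at 2582 CPM against 945 in the 17 Cd79a-detected class II cells under 40000 UMIs and 2499 in the remaining Cd79a-detected cells. The 945 CPM were 53 UMIs, of which 1 cell held 23, and the median of these 17 cells was 0, whereas every remaining cell had a Vpreb3 UMI. Vpreb1, which helped to cut the surrogate light chain class, had a UMI in 100% of the cells of that class. Once every cell was thinned to 1000 UMIs, the share was 86.2%. In the haemoglobin-rich cells, which should lack the gene, the shares were 1.61% and 0%.

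For recombination, Dntt stood at 1797 CPM (1644 to 1960) and had no UMI in either the class II cells under 40000 UMIs or the remaining Cd79a-detected cells, where 3 counts would be 53.5 and 44.4 CPM. It was at least 33.6-fold higher than in the former and at least 40.5-fold higher than in the latter. Rag1 was at 81.0 CPM in the surrogate light chain class, 104 in the remaining cells and 0 in the class II cells. The 24 cells with Dntt and the 5 without it differed in further genes, but 5 cells allow only a description. Ighm stood at 1092 CPM with Dntt and 2810 without, the kappa light chain gene Igkc at 26.1 and 647, Vpreb1 at 3308 and 924, and the transcription factor Spib at 34.8 and 222.

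The transcription factor gene Ebf1 stood at 2702 CPM (2514 to 2900) in the surrogate light chain class, 1855 in the class II cells under 40000 UMIs and 3017 in the remaining cells. Pax5, which holds cells to the B lineage, stood at 236, 214 and 488 CPM in the same order, and Sox4, a factor of early lymphoid cells, at 451, 410 and 458. Sox4 had a UMI in 25 of 29, 5 of 17 and 8 of 20 cells, with a median of 0 in the latter classes. Over all genes, 8.97% of 2710 were at least 4-fold higher in the surrogate light chain class than in the Cd79a-detected class II cells under 40000 UMIs, and 2.44% at least 4-fold lower. Against the remaining Cd79a-detected cells the shares were 4.95% and 2.06% of 2810. Of 16 factors that could be counted against the class II cells, 1 was at least 4-fold higher, no more than the share of all genes. It was Lef1, with 303 CPM against 17.8 (ratio 17.0; 2.97 to 679) and none was 4-fold lower. Against the remaining cells Lef1 was again the one factor at least 4-fold higher, of 17 counted, with 5.12 (1.93 to 19.2). There 2 of the 17 were at least 4-fold lower, beside 2.06% of all genes. These were Ikzf3 (Aiolos) and Spib, at 10.6 against 325 CPM and 70.5 against 503.

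In the interleukin-7 list, the receptor gene Il7r was at 359 CPM in the surrogate light chain class, 250 in the class II cells and 414 in the remaining cells. These levels were spread unequally over cells, since Il7r had a UMI in 22 of 29, 3 of 17 and 9 of 20 cells, with a median of 4 UMIs per cell in the surrogate light chain class and 0 in both others, and 1 remaining cell held 13 of its class's 28 UMIs. Ccnd3, the cyclin D3 gene, was at 1131, 161 and 177 CPM, a ratio of 7.04 (3.66 to 15.5) and 6.37 (3.60 to 12.5). Bcl2, an inhibitor of cell death, was lower than in the class II cells, at 28.2 against 303 CPM, and stood at 29.6 in the remaining cells (ratio 0.953; 0.190 to 9.21). Socs2, which damps cytokine receptor signals, was at 95.1 against 17.8 CPM, a ratio whose interval reached below 1 (0.879 to 218). Blnk, the adaptor that links the receptor to its downstream kinases, was at 454, 285 and 266 CPM. Other genes of the receptor signalling list went the other way. Of 9 counted against the class II cells, 0 were at least 4-fold higher and 1 was lower, Fcrla, at 45.8 against 392 CPM. Against the remaining cells 0 of 9 were higher and 3 were lower, beside 2.06% of all genes. These were Fcrla (45.8 against 784 CPM), Cd72 (106 against 695) and Lyn (52.8 against 281).

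Immunoglobulin genes separated the classes. Ighm was detected in every one of the 29 cells, from 1 to 78 UMIs with a median of 9, and stood at 1420 CPM against 2729 in the class II cells and 4998 in the remaining cells. Igkc was at 144 CPM (104 to 196), against 8919 and 12422, or 61.7-fold lower (44.9 to 87.1) and 86.0-fold lower (62.9 to 121). Of its 41 UMIs in the surrogate light chain class, 1 cell held 13 and another 12, and the median was 0. Those cells held only 8 and 7 UMIs of Vpreb1 and Igll1, where the class median was 42, so the Igkc level rests largely on cells near the class limit. Ighd, the heavy chain gene of IgD on naive B cells, was at 7.05, 838 and 104 CPM. Among the 6 constant genes counted against each class, 4 were at least 4-fold lower, where 2.44% and 2.06% of all genes were, and 1 was higher, where 8.97% and 4.95% were. The exception was Ighg2b, an IgG heavy chain gene, with 102 UMIs in 13 of the 29 cells, the highest cell at 19, and none in the other Cd79a-detected cells of these classes. Constant genes of one family are similar in sequence, and how the authors' counting divided their reads is not given in the sources used here.

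**Figure D3:**
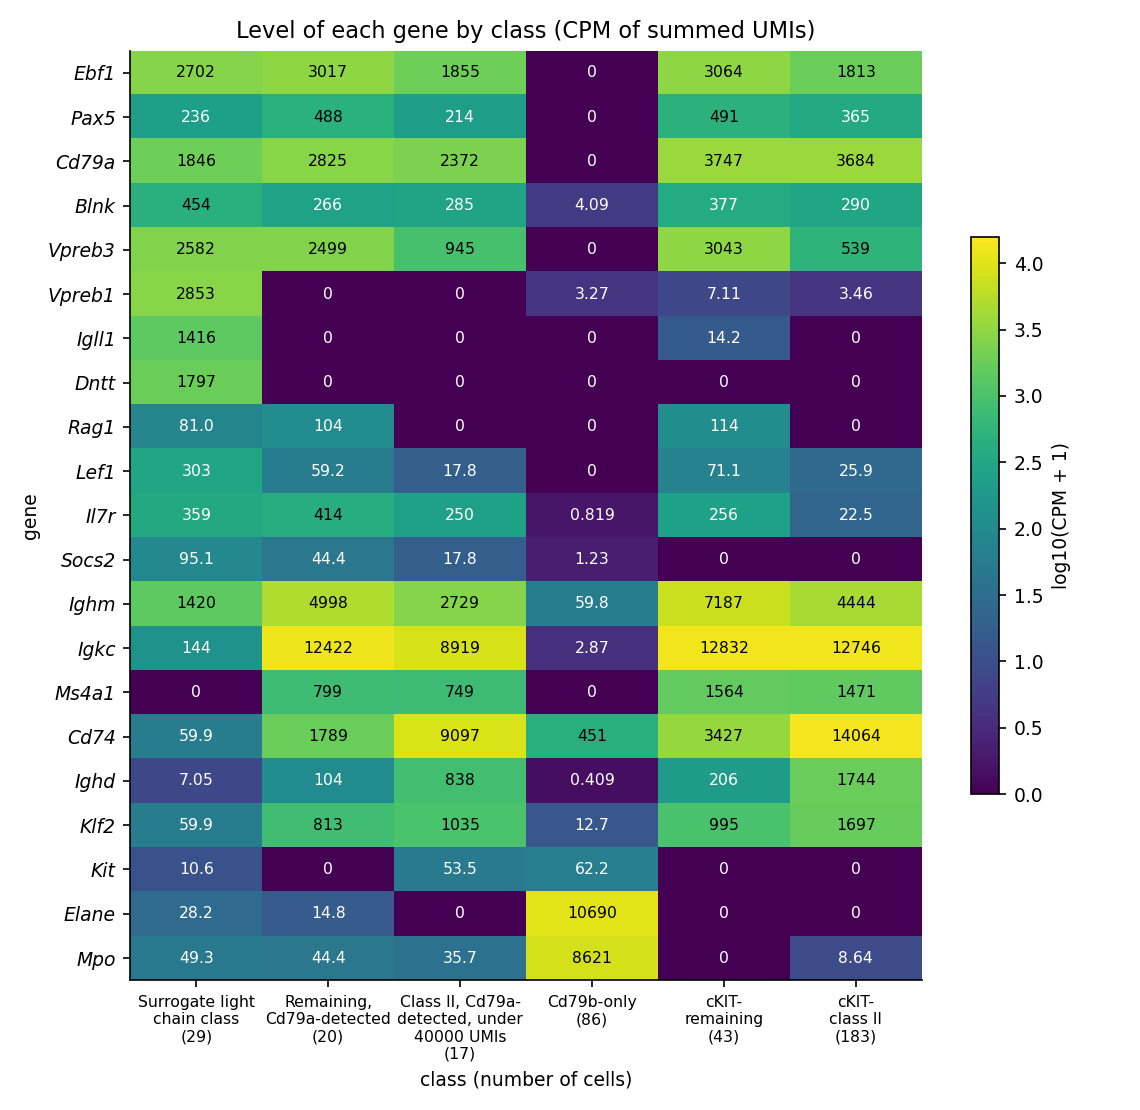
Levels of listed genes in log10 of CPM plus 1 (colour scale) in groups of cells, with 1 column per group, 1 line per gene and the CPM printed in each field. Dntt and Vpreb1 are coloured in the surrogate light chain class, at 1797 and 2853 CPM, Igkc and Cd74 in the class II cells, at 8919 and 9097 CPM, and Elane and Mpo in the Cd79b-only cells, at 10690 and 8621 CPM. Igkc is higher still in the remaining Cd79a-detected cells, at 12422 CPM, and in the cKIT- remaining and class II cells, at 12832 and 12746.

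Over all genes counted, after Dntt the highest ratios against the class II cells included Lef1, Rrm2, a subunit of ribonucleotide reductase (13.2; 3.59 to 110), and Bfsp2, at 13.5. Lower were Ms4a1, at least 70.9-fold, the invariant chain gene Cd74, 152-fold (93.9 to 263), Cd55, which restrains complement, 127-fold, and Klf2, a factor of quiescent lymphocytes that recirculate, 17.3-fold (9.92 to 31.6). The class II cells held few UMIs in all, so 1 UMI in them is 17.8 CPM and many of these ratios rest on 1 to 3 counts there.

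When the class II class was left as the rule cut it, with its 10 Cd79b-only cells and the 3 large cells, 2.80% of 3647 genes were at least 4-fold higher in the surrogate light chain class and 6.44% lower. The 10 highest ratios were those of Dntt, at least 239-fold, Cplx2 (87.3), Bfsp2 (64.3), Lef1 (60.5), Bst1 (52.1), Ighg2b, at least 47.9-fold, Vpreb2, at least 40.4-fold, Gfra1 (38.0), 1700048O20Rik (22.5) and Trp53i11 (19.7). Of these Bst1 encodes a surface enzyme first described on bone marrow stromal cells that support pre-B cells. The genes with the largest ratios in the other direction were Elane (229-fold lower), Prtn3 (174), Camp (132), C1qc (105), Apoe (104), Chil3 (104), Ifitm1 (98.0), Mpo (92.7), C1qa, at least 76.7-fold, and Fcer1g (76.0). These are genes of granulocytes and macrophages rather than of B cells.

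The 17 Cd79a-detected class II cells under 40000 UMIs had Cd79a from 3 to 13 UMIs per cell with a median of 8 and Ebf1 from 1 to 19 with a median of 5. Igkc ranged from 10 to 62 with a median of 25, Cd74 from 0 to 59 with a median of 32 and Ms4a1 from 0 to 6 with a median of 2. Vpreb1, Igll1 and Dntt had no UMI in any of the 17. Klf2 stood at 1035 CPM in them and Ighd at 838, both genes known from B cells that carry a complete receptor.

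The 20 remaining Cd79a-detected cells had Cd79a from 4 to 16 UMIs with a median of 9 and Vpreb3 from 1 to 18 with a median of 8.5. Igkc ranged from 4 to 125 with a median of 26.5, and Ighm from 6 to 31 with a median of 16. In these cells Cd74 was at 1789 CPM against 9097 in the class II cells, and Ighd at 104 against 838, while Rag1 was at 104 against 0 and Vpreb3, seen in 20 of 20 cells against 8 of 17, at 2499 against 945. Rag1 rested on 7 UMIs in 4 of the 20 cells. Ms4a1 was at 799 and 749 CPM, but in the remaining cells it was seen in 8 of 20, from 0 to 13 UMIs with a median of 0, and in the class II cells in 14 of 17. The low class II level of the remaining cells was fixed by the limit that cut the class.

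Light chain use was read from the constant genes. Of the 40 Cd79a-detected cells outside the surrogate light chain class, 39 had at least 3 Igkc UMIs and 26 at least 3 UMIs of the lambda genes Iglc1, Iglc2 and Iglc3 together, but only 1 had more lambda than kappa. In the surrogate light chain class 5 of 29 cells had at least 3 Igkc UMIs and 0 had 3 of lambda. Heavy chain variable genes had 48 UMIs in the surrogate light chain class, and 5 cells reached 3 UMIs of 1 such gene, each cell with a different one. Some Igkc is present outside these cells. In the haemoglobin-rich cells, which should lack it, 11.3% had a UMI and 1.72% after thinning, and 99.4% of the Igkc UMIs of all other cells, 38073 of 38314, lay in 5 cells.

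Cycling was defined as at least 3 UMIs over Mki67, Top2a, Cdk1, Ccnb1 and Birc5, genes of mitosis. By that measure 15 of 29 cells of the surrogate light chain class were cycling (51.7%; 32.5 to 70.6), 1 of 17 class II cells under 40000 UMIs (5.88%) and 3 of 20 remaining Cd79a-detected cells (15.0%). At 1000 UMIs per cell, with no cell left out, the shares were 24.1% (10.3 to 43.5), 5.88% (0.149 to 28.7) and 10.0% (1.23 to 31.7), and these intervals overlap. The Cd79b-only cells fell from 86.0% to 6.98% with thinning, beside 81.7% and 6.99% in the other Elane-high cells, so that both dropped to a similar share at equal depth. In the 229 cells of the cKIT- library 4.37% were cycling before thinning and 3.93% after it.

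The S phase genes, which the definition did not use, had a higher sum in the surrogate light chain class. Summed over 8 genes of DNA replication they stood at 1825 CPM, against 321 in the class II cells and 858 in the remaining cells. Of the 8, 5 were at least 4-fold higher than in the class II cells, with a median log2 ratio of 2.30 beside 0.23 over all genes, and these were Mcm2, Mcm3, Pcna, Tyms and Rrm2. Mcm2 had no UMI in the class II cells, so that its ratio is bounded only as at least 3.16-fold, and the interval of Pcna reached below 1 (0.950 to 234). Those of Mcm5 (0.775 to 6.22) and Gins2 (0.752 to 25.6), which did not pass, did so too. Mcm3, part of the replicative helicase, was at 285 against 35.7 CPM (ratio 8.0; 2.14 to 67.2). Against the remaining cells the intervals of Mcm2, Mcm5, Mcm6, Pcna and Tyms reached below 1. There 2 of the 8 passed the limit, Mcm3 (4.82; 1.81 to 18.1) and Gins2 (7.15; 1.19 to 292). Of the 8 mitosis genes, 1 passed it against each class, a share near that of all genes given above. These were the kinase gene Cdk1 against the class II cells (5.46; 1.81 to 27.0) and the centromere gene Cenpf against the remaining cells (4.96; 2.22 to 13.8).

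**Figure D4:**
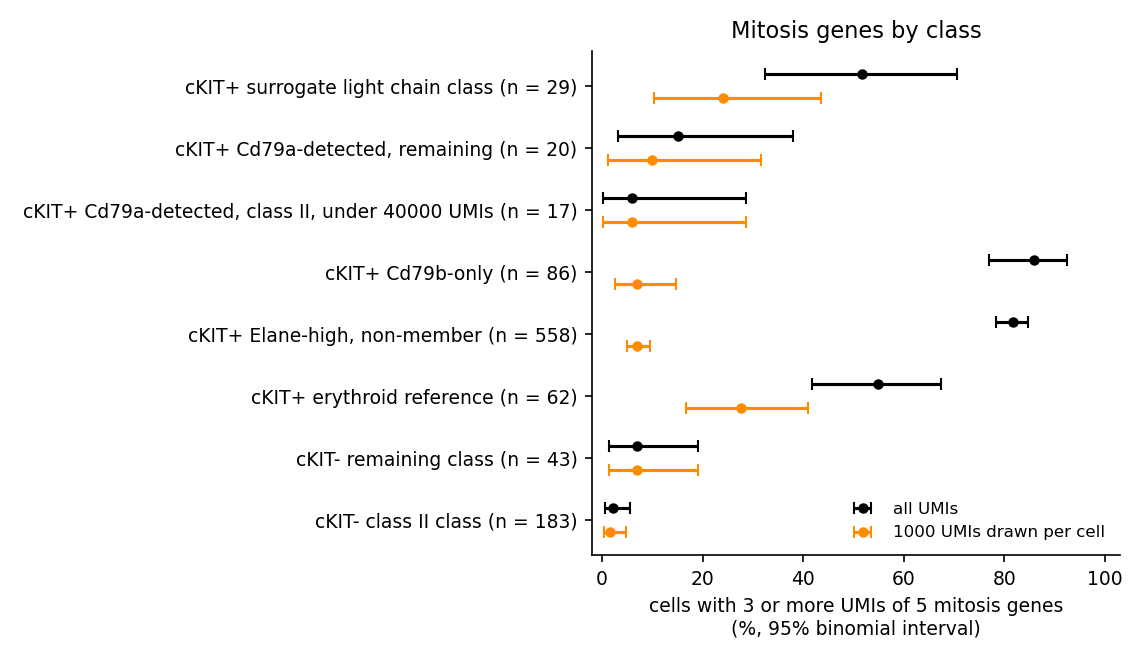
Percent of cells with at least 3 UMIs of Mki67, Top2a, Cdk1, Ccnb1 and Birc5 (from 0) in classes of both libraries, from all UMIs and after thinning each cell to 1000 UMIs, with exact binomial 95% intervals. The surrogate light chain class is at 51.7% and 24.1%, and the Cd79b-only cells drop from 86.0% to 6.98%.

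The sort was made on cKIT, and Kit transcripts were sparse in the B-lineage cells. Kit (chromosome 5, 75574916 to 75656722) had 166 UMIs in 67 of the 155 cells, 55.4 CPM (47.3 to 64.5), against 36.7 in the other cells of the library. Of these UMIs 152, in 60 cells, were in Cd79b-only cells, which were at 62.2 CPM. The 69 Cd79a-detected cells held 14 UMIs in 7 cells, of which 8 lay in the 3 cells of over 40000 UMIs. In the surrogate light chain class 3 of 29 cells had 1 UMI each (10.6 CPM), in the class II cells under 40000 UMIs 1 cell had 3, and in the 20 remaining cells none had any. After thinning, 0% of the Cd79a-detected, 10.5% of the Cd79b-only and 0% of the haemoglobin-rich cells had a Kit UMI. In the cKIT- library 0 of 229 cells had a Kit UMI, with an interval reaching 1.60% of cells with a UMI. Their median depth was 2707 UMIs, at which a gene of this level is mostly missed in a single cell, so a cell without a UMI may still express Kit. The sum does limit the level of the group, with 0 Kit UMIs among 784795 UMIs. The 66 Cd79a-detected cKIT+ cells under 40000 UMIs held 6 among 407548.

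Transcripts of E-cadherin, the other sorted protein, were rare in these cells in both libraries. Cdh1 had 21 UMIs in 14 of the 155 cells, 7.01 CPM against 62.5 in the other cells of the library (8.92-fold lower; 5.83 to 14.4). The Mcpt8 limit of the rule leaves the Mcpt8-rich cells among those other cells, and the Elane-high cells that were not taken held 6.88 CPM (5.62 to 8.33). In the Cd79a-detected cells 1 of 69 had 1 UMI. In the surrogate light chain class 0 of 29 had any, with an interval reaching 11.9% of cells with a UMI. A single cell of this depth can miss a gene that it expresses. Over the 29 cells, with 283864 UMIs, 3 counts would be 10.6 CPM, beside 62.5 in the other cells of the library. The Cd79b-only cells held the other 20 UMIs in 13 cells. In the cKIT- library 3 of the 229 cells had 5 UMIs in all, whereas 2306 of the 3516 other cells had Cdh1. After thinning, 0.645% of the 155 cells and 7.11% of the other cKIT+ cells had a Cdh1 UMI. How these cells passed a gate on surface E-cadherin was not tested.

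Of the other early progenitor genes, Cd24a (heat-stable antigen) was at 578 CPM in the surrogate light chain class, 589 in the class II cells and 902 in the remaining cells. In the surrogate light chain class Flt3, a receptor of early lymphoid progenitors, stood at 17.6 CPM, the progenitor factor Erg at 49.3, Ly6a at 24.7, Cd44 at 14.1 and Cd34 at 7.05. Cd93, carried by immature B cells, was at 169 CPM, against 53.5 in the class II cells and 192 in the remaining cells. Ly6d, which marks the step to the B lineage among lymphoid progenitors, was at 342 CPM, against 1552 in the class II cells and 3032 in the remaining cells, and 3 cells held 73.2% of its UMIs in the surrogate light chain class.

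The marker lists of other cell types were summed in both groups. In the 66 Cd79a-detected cells under 40000 UMIs the 9 genes of the neutrophil list summed to 351 CPM, led by S100a9, against 39324 in the Cd79b-only cells, led by Elane. The 10 basophil genes summed to 371 against 1276 CPM, led by Mcpt8, which the rule held down in both, and the protease gene Prss34, which it did not use, was at 110 against 272. The 5 macrophage genes summed to 7.36 against 372, with 2 genes at 0 in the former, the 5 monocyte genes to 9.81 against 831, with 3 at 0, and the 5 mast cell genes to 0 against 4.91. The 7 erythroid genes summed to 27.0 against 12.7 CPM, the 4 eosinophil genes to 12.3 against 150 and the 6 conventional dendritic genes to 17.2 against 11.9. The 7 plasmacytoid dendritic genes summed to 294 against 176 CPM, led by Tcf4, a factor that B-lineage cells also use. The T and NK list summed to 19.6 against 1291, led by Nkg7 in both, with 6 and 5 of 7 genes at 0 and Cd3d the other gene detected in the latter, at 2.05 CPM. The stromal and endothelial list summed to 95.7 against 27.4, led by Pecam1, with 4 and 2 of 5 genes at 0. The plasma cell list summed to 1033 against 133 CPM, led by Mzb1 in the former and Xbp1 in the latter, and Mzb1 was detected in every cell of the surrogate light chain class, from 1 to 38 UMIs. The lists of B cell stages read 1779 against 74.9 CPM for pro-B genes, led by Dntt and Kit, 3955 against 101 for small pre-B genes, led by Igkc and Sox4, and 2486 against 610 for immature and mature B genes, led by Cd74 in both. The part of free RNA or of doublets in these sums was not tested.

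Against the 6477 other cells of the cKIT+ library, 0.617% of 3079 genes were at least 4-fold higher in the 155 cells and 1.95% at least 4-fold lower. The rule fixed this contrast, so the genes only describe the cells it took. The 10 with the largest ratios were Vpreb3 (434; 340 to 563), Ebf1 (314), Dntt (246), Igll1 (194), Mzb1 (83.9), Vpreb1 (66.6), Blnk (52.2), Ly6d (40.7), Pf4 (29.7) and Fam129c (26.3). Except for Pf4 and Fam129c, these are the listed genes and Mzb1 described above in the Cd79a-detected cells.

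Over all cells that the rule took, the cKIT+ side of the comparison included the 86 Cd79b-only cells, for which the cKIT- side had no counterpart. Of 3717 genes, 5.92% were at least 4-fold higher in the 155 cKIT+ cells than in the 229 cKIT- cells and 8.93% at least 4-fold lower. The 5 largest ratios were those of Elane, at least 2352-fold higher, Prtn3 (2262), Mpo (1126), Nkg7 (848) and Ctsg (392), the genes of the Cd79b-only cells. The 5 in the other direction were Pxdc1 (80.2-fold lower), the follicular homing receptor Cxcr5 (70.0), Ighd (65.1), the costimulatory receptor Cd40 (63.8) and Btla (61.1). All 7 immunoglobulin constant genes counted and all 11 mature B genes were at least 4-fold lower in the cKIT+ cells.

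The classes were then compared separately, and in the class II cells the counts depended on the 3 cells of over 40000 UMIs. Without them, between the 17 cKIT+ and 183 cKIT- class II cells with Cd79a, 0.780% of 3591 genes were at least 4-fold higher and 3.45% at least 4-fold lower. None of the 7 constant, 11 receptor signalling and 8 mature B genes passed the limit in either direction, and their median log2 ratios were -0.93, -0.28 and -0.60 beside 0.20 over all genes. Ebf1 was at 1855 CPM in the cKIT+ and 1813 in the cKIT- cells (ratio 1.02; 0.828 to 1.25). Igkc was at 8919 and 12746 (0.700; 0.638 to 0.766), Ighm at 2729 and 4444 (0.614; 0.518 to 0.723) and Cd74 at 9097 and 14064 (0.647; 0.590 to 0.707). With the 3 large cells kept, the shares of genes past 4-fold were 4.69% and 5.64% of 3690, and 7 of 7 constant, 5 of 11 receptor signalling and 7 of 8 mature B genes were at least 4-fold lower in the cKIT+ cells, with median log2 ratios of -2.65, -1.80 and -2.14 beside 0.09 over all genes. Igkc then had a ratio of 0.205 (0.188 to 0.224) and Cd74 of 0.200 (0.183 to 0.218).

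Without the 3 large cells, the listed genes past 4-fold were few and rested on few cells. Il7r was at 250 against 22.5 CPM (11.1; 4.85 to 25.7), with UMIs in 3 of 17 cells and 4 of 183. Sox4 was at 410 against 39.7 CPM (10.3; 5.53 to 19.3), with UMIs in 5 of 17 cells and 9 of 183. Both are genes of early B cells, and in the other class described next their levels in the cKIT- library were as high as these. Il2rg, which encodes the shared cytokine receptor chain, was at 35.7 against 256 CPM, 7.17-fold lower (1.95 to 59.7). S100a8, of the neutrophil list, was at 35.7 against 159 CPM, 4.46-fold lower (1.20 to 37.3), with 2 UMIs in the 17 cells. Of the 7 mitosis genes counted, Ccnb1 (cyclin B1) passed the limit, at 178 against 43.2 CPM (4.13; 1.77 to 8.90), and Cenpf stood just under it, at 410 against 111 (3.71; 2.20 to 6.06). Ccnb1 had UMIs in 2 of the 17 cells and Cenpf in 1, against 3 and 5 of the 183, and 1 of the 17 was cycling by the UMI count, so these ratios describe 1 or 2 cells and not the class.

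Between the 20 cKIT+ and 43 cKIT- remaining cells with Cd79a, 0.549% of 1822 genes were at least 4-fold higher and 0.878% lower. Of the listed genes that could be counted, only Rrm2 passed the limit, at 281 against 64.0 CPM (4.39; 1.89 to 11.0). It was the 1 gene of the 8 in the S phase list with enough UMIs to be counted, so the list as a whole was not compared. Ebf1 was at 3017 and 3064 CPM (0.985; 0.829 to 1.17), Igkc at 12422 and 12832 (0.968; 0.891 to 1.05), Vpreb3 at 2499 and 3043 (0.821; 0.683 to 0.984) and Rag1 at 104 and 114 (0.910; 0.317 to 2.34). Il7r was at 414 and 256 CPM (1.62; 0.951 to 2.73) and Sox4 at 458 and 491 (0.935; 0.591 to 1.45). Cd74 was lower in the cKIT+ cells, at 1789 against 3427 CPM (0.522; 0.424 to 0.639), as was Ms4a1, at 799 against 1564 (0.511; 0.372 to 0.690). The surrogate light chain class held 3 cells in the cKIT- library, all of them cycling by the UMI count and without a Dntt UMI, too few for a comparison of levels.

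**Figure D5:**
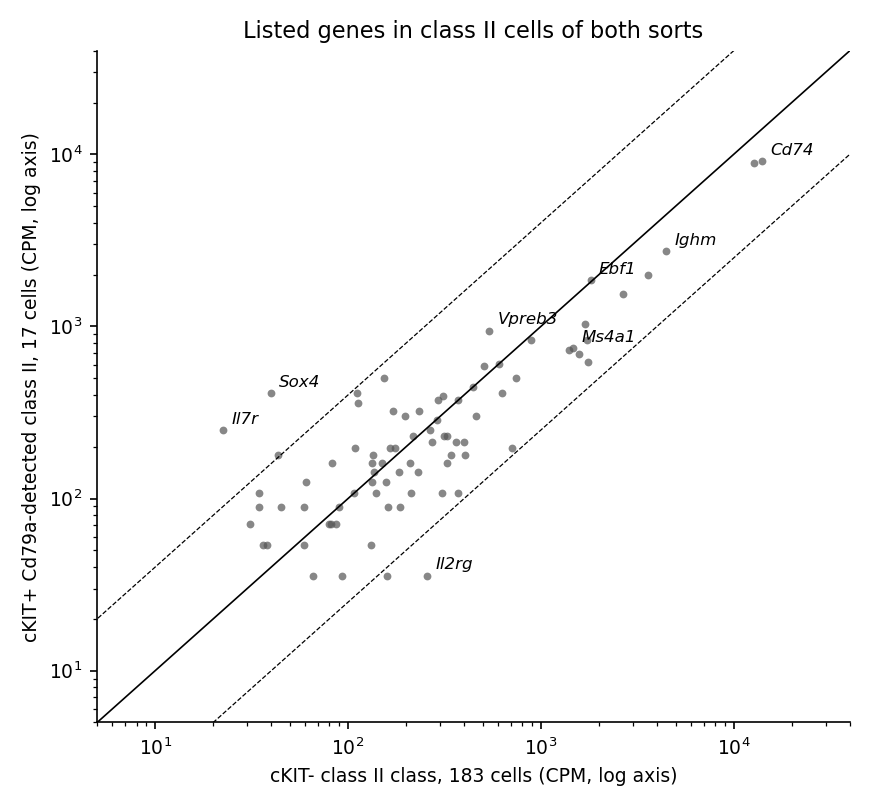
Levels of 82 listed genes in the 17 Cd79a-detected class II cells under 40000 UMIs of the cKIT+ library (vertical axis) against the 183 class II cells of the cKIT- library (horizontal axis), in CPM on log axes, with 1 point per gene. The solid line marks equal levels and the dashed lines 4-fold. Of the labelled genes, Ebf1 lies on the line, Cd74, Ighm and Ms4a1 below it within 4-fold, Il7r and Sox4 above the upper dashed line and Il2rg below the lower one. Ccnb1, also above the upper line, and S100a8, also below the lower one, are not labelled.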

How the data were processed

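Raw UMI counts per gene and cell were deposited by the authors for both sorts, made with Cell Ranger 3.0.2 on mm10 per the submitters' processing notes. The kit is version 3 in the methods and version 2 in the labels. The release of the gene annotation used for counting is not given in the sources used here. The counts were read as deposited, and the barcodes kept by the authors were filtered only by the rule for the cells. No clusters were made, doublets were kept and no caller was run. Gene coordinates came from GENCODE release 21 for mouse (GRCm38), which held 30934 of 31053 gene identifiers, and promoters from RefSeq.

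UMIs were summed over the cells of a group and scaled to CPM. Genes counted past 4-fold had at least 50 CPM in 1 group and 20 UMIs over both, the genes of the rule or of the class limits left out, and a gene at 0 in 1 group counted as past the limit. Thinning drew 1000 UMIs from each cell without replacement and left out shallower cells, 0 of the 155, 207 of 6477 other cells and 4 of 62 haemoglobin-rich cells (at least 50 haemoglobin and fewer than 3 Cd79 UMIs). The counts past 4-fold were tested on simulated counts before use. Python 3.11.15, numpy 2.4.6, scipy 1.17.1 and pandas 2.3.3 were used, matplotlib 3.10.9 for figures, and edgeR 4.0.16 in R 4.3.3 for TMM factors alone.

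Named are the genes of fixed lists, the 10 of largest ratio against the other cells, the 5 in each direction against the cKIT- cells and the 10 in each direction between the surrogate light chain and class II classes. Other genes, the comparison by Cd79a and the matched classes were chosen after values were seen. The rule, lists and classes were chosen with earlier results of these data known. Alternatives changed the UMI minimums, the Mcpt8 limit, the cell filter, the cells with genes of other types, depth, the weight of cells, the minimum level and the scaling. The colony, flow cytometry and human data of the study were not analysed here.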

Additional observations from a re-analysis of the deposited data

How the results depend on the processing

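What depends most on the processing is how many Cd79b-only cells are taken, and values given in the report for the 155 cells moved with most stricter choices of cells, but not with a minimum of 2000 UMIs per cell, which left 152 cells and moved none of the values computed under it. The number of cells was 76 with at least 5 Cd79 UMIs, 64 with at least 10, 47 without cells holding 10 or more UMIs of another cell type's list (a list that takes in Mzb1, seen in all 29 cells of the surrogate light chain class), and, in alternatives chosen after seeing the data, 69 with Cd79a and 66 with Cd79a and under 40000 UMIs. In that order of alternatives, the surrogate light chain class made up 36.8% and 43.8% with 5 and 10 UMIs, and 42.0% and 43.9% in the last pair. The class II class made up 36.2% without cells holding another type's genes, 11.6% when thinned to 1000 UMIs, 31.0% with a minimum of 1 UMI and 29.0% with Cd79a. Cycling cells were 36.8% and 31.2% with 5 and 10 UMIs, 12.8% without cells holding another type's genes, 10.3% when thinned, and 31.9% and 28.8% in the last pair.

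The level of Ebf1 was 1316 and 2198 CPM with 5 and 10 UMIs, 407 with Mcpt8 under 0.1%, 463 with the cell filter of the study, 2867 without cells holding another type's genes, 1347 as the mean of the CPM of each cell, 1979 with Cd79a and 2638 with Cd79a under 40000 UMIs. Under the same alternatives Elane was 3239, 1294, 9248, 9521, 39.1, 5435, 1514 and 22.1 CPM. Kit was 44.6 and 24.3 CPM with 5 and 10 UMIs, 27.9 without cells holding another type's genes, 38.9 as the mean over cells, 25.2 with Cd79a and 14.7 with Cd79a under 40000 UMIs.

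Against the other cells of the library, the genes at least 4-fold higher numbered 87 and 153 with 5 and 10 UMIs, 288 without cells holding another type's genes, 93 as the mean over cells, 286 with no minimum CPM, 7 at 200 CPM, 143 with Cd79a and 196 with Cd79a under 40000 UMIs, beside 19 as reported. Those at least 4-fold lower, 60 as reported, numbered 94, 161, 230, 1011 with no minimum CPM, 19 at 200 CPM, 124 and 195. Against the cKIT- cells, the higher genes, 220 as reported, numbered 144, 102, 108, 791 with no minimum CPM, 68 at 200 CPM, 116 and 85, and the lower ones, 332 as reported, 170, 119, 53, 122 as the mean over cells, 554 with no minimum CPM, 107 at 200 CPM, 120 and 91. Between the surrogate light chain and class II classes, the higher genes, 102 as reported, numbered 188 as the mean over cells, 33 at 200 CPM and 243 with Cd79a under 40000 UMIs, and the lower ones, 235 as reported, 59 at 200 CPM, 99 with Cd79a and 66 with Cd79a under 40000 UMIs. Of 127 alternative values 50 stayed within the 95% interval of the reported value, or for counts of cells and genes within 1.5 times of it, and 77 did not.

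With 1 library per sort there is no replicate, so no replicate could be left out. No paired analysis was possible because neither sort has replicate numbers. Depth limits the description of the B-lineage cells, since the Cd79a-detected class II cells under 40000 UMIs and the remaining ones held medians of 2350 and 2713 UMIs, and a gene with no UMI in the 17 class II cells may have stood at the 53.5 CPM that 3 counts would give.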
